A study of Mus musculus with 4 samples.

Results

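FRMD8 and its partners in ectodomain shedding were examined by the transcripts of 5 genes, Frmd8, Rhbdf1, Rhbdf2, Adam17 and Adam10, out of 32285 genes counted in single cells of mouse mammary tumors. The genes were chosen by symbol because the FRMD8 protein binds the iRhoms that carry ADAM17, and all 5 were found in the gene list of each of the 4 libraries. Each library came from tumor at 17 to 18 weeks and was taken to come from a different mouse. Libraries 1 and 3 carried the genotype MMTV-Cre-; Frmd8 fl/fl; PyMT (called Cre-), and libraries 2 and 4 the genotype MMTV-Cre+; Frmd8 fl/fl; PyMT (called Cre+). All 4 mice thus carried the floxed Frmd8 alleles and the PyMT oncogene, and the genotypes differed in the MMTV-Cre transgene, whose promoter is intended to delete Frmd8 in the luminal epithelium. Barcodes with at least 1000 unique molecular identifiers (UMIs, each marking 1 captured RNA molecule) and at most 20% mitochondrial UMIs were kept, which gave 23572 cells. Levels are given in CPM, the UMIs of a gene per 1000000 UMIs of a cell class in a library, and each library counts as 1 replicate.

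iRhom1 (Rhbdf1) and iRhom2 (Rhbdf2) are relatives of the rhomboid proteases that have lost protease activity. They escort the membrane metalloprotease ADAM17 from the endoplasmic reticulum toward the cell surface, and FRMD8, a FERM domain protein, binds their cytoplasmic tail and keeps the complex from being degraded. ADAM17 releases tumor necrosis factor, its receptors and several EGF family ligands from the membrane. ADAM10, the closest relative of ADAM17, is escorted by tetraspanins of the TspanC8 group instead and cleaves Notch receptors and cadherins.

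The floxed exons are shown first, because they decide what the counts can say about the deletion. In the GENCODE M21 annotation of GRCm38, Frmd8 lies on the minus strand at chr19:5849702-5875274, and its principal transcript has 11 exons and 4504 bases. Exons 4, 5 and 6, which are flanked by loxP sites in these mice, lie at chr19:5870011-5870112, chr19:5869736-5869794 and chr19:5869437-5869603 and hold 328 coding bases together. That length leaves a remainder of 1 when divided by 3, and joining exon 3 to exon 7 would shift the reading frame. The full frame has 466 codons, and the joined one would meet a stop codon after 121 codons, of which 84 precede the join. The study's quantitative PCR primers for mouse Frmd8 lie inside the floxed exons, the forward primer in exon 4 and the reverse primer in exon 6. They are printed in lower case, followed by the last 15 bases of exon 3 in lower case with the first 15 bases of exon 7 in capitals.
Frmd8 forward primer: cgatgatgatgtcgccatgg
Frmd8 reverse primer: agtcctccaagtcacaaggg
Frmd8 exon 3 joined to exon 7: tctcccctctcttggAGAGAAGCTGGACTC
The joined sequence is read from the annotation and was not looked for in reads. The sequencing kit captures the 3′ end of transcripts, which for Frmd8 lies in exon 11, and 3739 bases separate exon 6 from that end. A transcript that lacks exons 4 to 6 is therefore still counted as Frmd8, and the UMI counts report how much Frmd8 RNA is present, not whether it holds the floxed exons. No genome build is named in the deposited files, so the coordinates are those of the annotation. In the same annotation Rhbdf1 lies at chr11:32209585-32222300 and Rhbdf2 at chr11:116598165-116627019 on the minus strand, Adam17 at chr12:21323509-21373632 on the minus strand and Adam10 at chr9:70678997-70780229 on the plus strand.

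**Figure D1:**
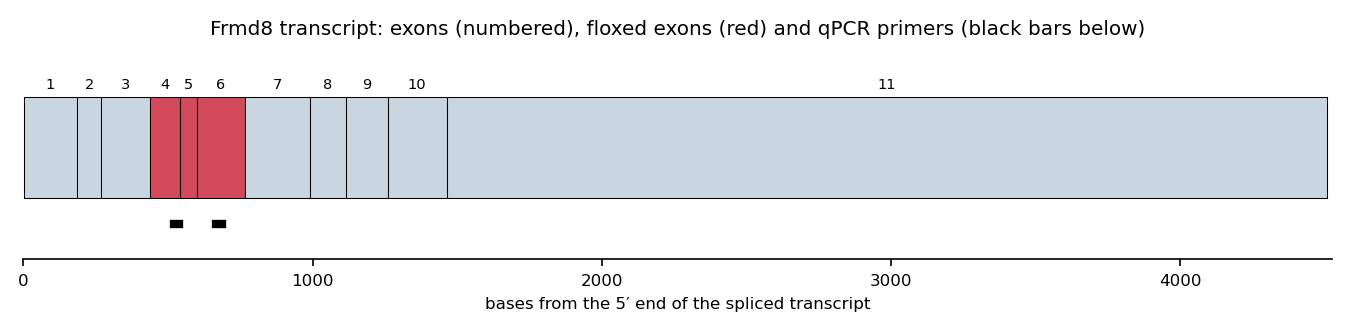
Spliced Frmd8 transcript drawn to scale, with bases from the 5′ end on the horizontal axis, numbered exons as boxes, the floxed exons in red and the qPCR primers as black bars. The primers fall in exons 4 and 6, and 3739 of the 4504 bases follow exon 6.

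The kept cells numbered 4922 and 5918 in the Cre- libraries and 5609 and 7123 in the Cre+ libraries, with 107848230 to 134882211 UMIs per library and a median of 12455 to 13072.5 UMIs per cell. Marker genes placed 19865 cells in 13 classes and left 3707 in none. In luminal epithelial cells the 8 epithelial markers summed to 5385 to 7722 CPM and the 4 pan-immune markers to 33.6 to 57.1 CPM, whereas in T cells the 8 T cell markers summed to 5806 to 6068 CPM and the epithelial markers to 134 to 242 CPM. The class gated on basal keratins was led by Krt16, Krt6a and Krt14, genes of stratified epithelium, and is called basal-keratin cells here. Cre+ replicate 4 stands apart in its form, since every barcode was deposited and its file names an older Cell Ranger version than the other 3 libraries. It was also the lowest of the 4 libraries for 29% (basal-keratin cells) to 48.9% (macrophages) of the genes with at least 40 UMIs, depending on the class, with 45.5% in luminal epithelial cells. Any 2 libraries shared 6 to 16 cell barcodes.

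Frmd8 was read in the Cre- libraries first. It was highest in T cells, with 61.0 and 61.2 CPM, and in NK cells, with 58.2 and 62.0 CPM. These lymphocyte classes overlapped each other and stood above every other class, of which the nearest, endothelial cells, had 32.8 and 34.5 CPM. Pericytes and basal-keratin cells followed at means of 31.5 and 31.1 CPM. Luminal epithelial cells, the class in which the deletion was intended, had 24.1 CPM in both Cre- libraries. Macrophages had 24.8 and 23.4 CPM, so that luminal cells and macrophages could not be ordered. Dendritic cells and monocytes lay near them at means of 26.1 and 25.6 CPM. Fibroblasts were lowest with 16.2 and 18.4 CPM, beside neutrophils, whose 24.9 and 9.89 CPM rest on 19 and 3 UMIs. Within Cre- luminal cells, those with many casein UMIs and those with few held 23.8 to 25.2 CPM, a narrow range across both libraries.

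In the joint edgeR fit over 11 classes and 4 libraries, Frmd8 was higher in T cells than in luminal epithelial cells (log2 fold change 1.64 ± 0.26 SE, adjusted p = 9.151e-07), and within the Cre- libraries alone the difference was 1.43 (adjusted p = 1.014e-05). In the T cell comparison over all 4 libraries, 23.3% of all 13671 genes tested were called higher and 32.8% lower. Endothelial cells (1.00 ± 0.26, adjusted p = 0.001442) and macrophages (0.58 ± 0.24, adjusted p = 0.03869) were also called higher over all libraries. Both of these calls were lost within the Cre- libraries, where the differences were 0.44 (adjusted p = 0.08171) and 0.26 (adjusted p = 0.2636). The macrophage call was also lost without TMM scaling and without Cre+ replicate 2. Fibroblasts, neutrophils and basal-keratin cells were not called for Frmd8, at 0.32, 0.48 and 0.11.

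**Figure D2:**
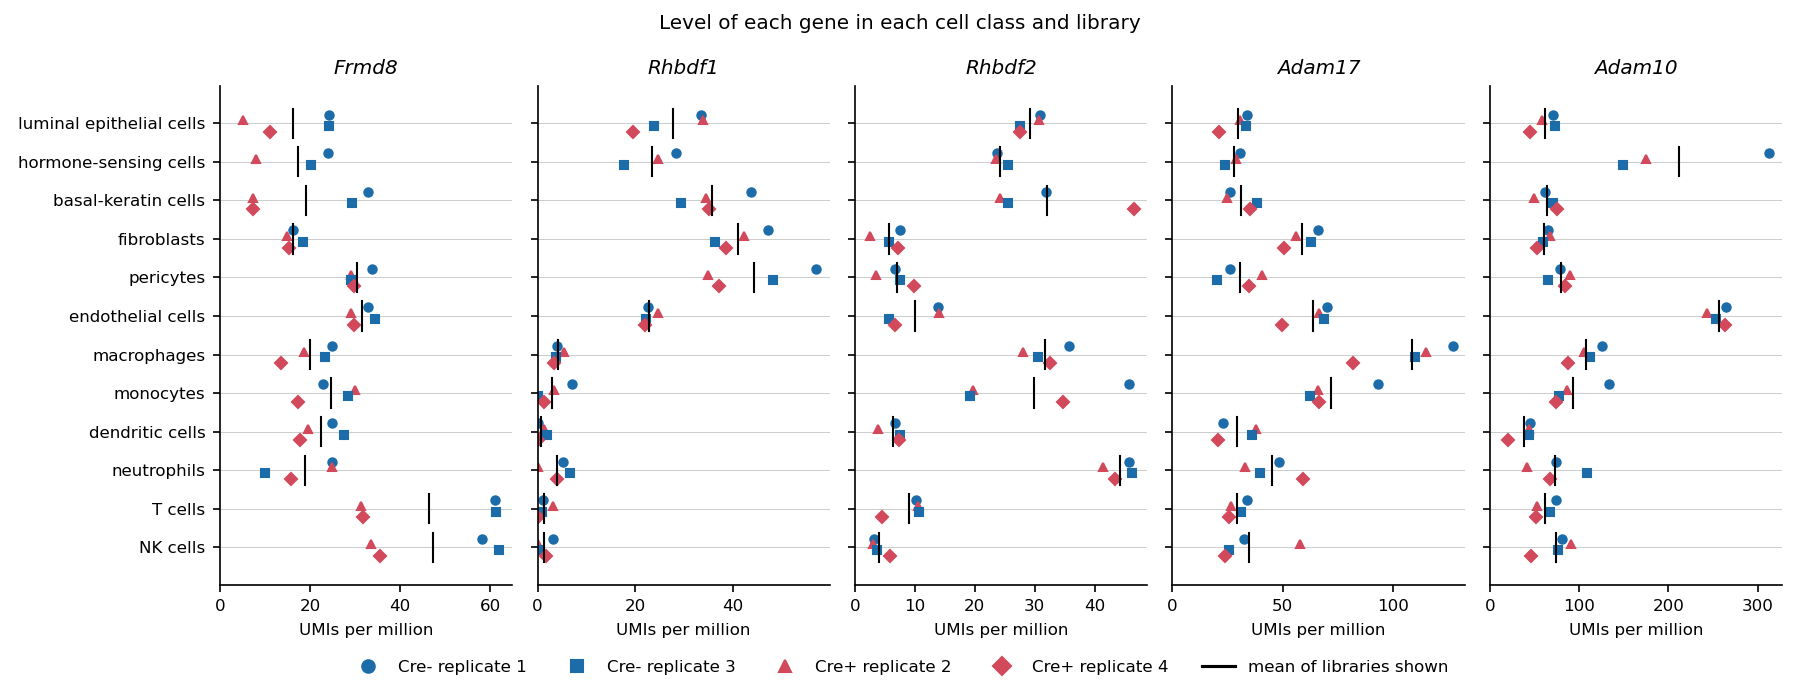
CPM of each gene (horizontal axes, 1 panel per gene) in 12 cell classes (rows), with 1 point per library of at least 10 cells in the class, Cre- in blue and Cre+ in red, and a black bar at the mean. Frmd8 reaches 61.0 and 61.2 in Cre- T cells, Rhbdf1 lies below 10 in the immune classes, and Adam10 lies above 140 in endothelial and hormone-sensing cells.

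Between genotypes, Frmd8 was lowest relative to control in the epithelium. In luminal epithelial cells the Cre+ libraries held 5.18 CPM (replicate 2) and 11.1 CPM (replicate 4), against 24.1 CPM in both Cre- libraries, so that the Cre+ mean was 33.7% of the Cre- mean. The Cre+ libraries differed from each other more than the Cre- libraries did, and the genotypes did not overlap. Luminal cells had medians of 19464 and 20280 UMIs per cell in the Cre- and 12722 and 12336.5 in the Cre+ libraries. The part of this depth in the luminal values was not tested. In basal-keratin cells the Cre+ libraries held 7.31 and 7.27 CPM against 32.7 and 29.4 CPM, or 23.5% of the Cre- mean, on 10 and 39 Cre+ UMIs. Hormone-sensing cells were luminal cells with a UMI of at least 4 of 8 markers, among them the estrogen and progesterone receptors. A cell could enter without either receptor. Their medians of 44379 to 74189 UMIs per cell lay above the 12336.5 to 20280 of luminal cells, and the part of depth in this gate was not tested. Hormone-sensing cells had 24.0 CPM of Frmd8 in the first Cre- library and 7.94 CPM in library 2, which is Cre+. Cre- replicate 3 had 11 such cells with 20.2 CPM, and Cre+ replicate 4 had 0 cells in that class.

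Lower Frmd8 in Cre+ libraries was also measured outside the epithelium. T cells held 31.4 and 31.8 CPM in the Cre+ libraries against 61.0 and 61.2 CPM, which is 51.7% of the Cre- mean. NK cells held 33.5 and 35.6 CPM against 58.2 and 62.0 CPM, or 57.4%. The T cell values were close within each genotype and far apart between them, on 233 Cre- and 144 Cre+ UMIs. The NK cell values did not overlap between genotypes, but they rest on only 35 Cre- and 95 Cre+ UMIs. Their closeness within a genotype is therefore not read as a small spread. B cells had too few Frmd8 UMIs to compare, 1 in the Cre- and 4 in the Cre+ libraries. Macrophages had 18.5 and 13.5 CPM against 24.8 and 23.4 CPM (66.5%), and dendritic cells 71.1% of the Cre- mean. Endothelial cells and fibroblasts were at 87.6% and 86.7%. The genotypes overlapped in monocytes, pericytes and neutrophils, with Cre+ means at 92.3%, 93.6% and 117% of the Cre- means.

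Both Cre+ libraries thus lay below both Cre- libraries in 8 of 11 classes for Frmd8. The same was seen for 15.8% of genes with at least 40 UMIs in luminal epithelial cells, 18.7% in basal-keratin cells, 21.2% in T cells, 17.9% in NK cells, 18.7% in macrophages, 20.3% in dendritic cells, 17.6% in endothelial cells and 20% in fibroblasts. In the 3 classes that overlapped it was seen for 14.4% (monocytes), 15% (pericytes) and 30.1% (neutrophils) of genes. The classes share the same 4 mice and are not independent of each other. The epithelial markers in T cells, at 134 to 242 CPM, lay far below the 5385 to 7722 CPM of luminal cells, and the part of epithelial RNA in the T cell difference was not tested. Fewer molecules of RNA per cell and fewer cells with the RNA cannot be told apart in such sums.

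With 2 mice per genotype an exact permutation test cannot go below p = 0.333, so the test used was that of edgeR across all genes. The log2 fold change of Frmd8, Cre+ over Cre-, was -1.48 ± 0.46 SE in luminal epithelial cells (unadjusted p = 0.02567), -0.85 ± 0.25 in T cells (unadjusted p = 0.008722) and -0.49 ± 0.19 in macrophages (unadjusted p = 0.05099). In fibroblasts it was -0.19 ± 0.16 and in endothelial cells -0.18 ± 0.22. After adjustment over all genes none of these was called, with adjusted p between 0.9379 and 0.9999. Basal-keratin cells, NK cells and the remaining classes were not tested between genotypes. The luminal value was -0.98 without Cre+ replicate 2 and -2.27 without Cre+ replicate 4, and the macrophage value passed without replicate 2 (-0.68, adjusted p = 0.04401).

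These comparisons called few genes of any kind. edgeR called 0% of genes in luminal epithelial cells, macrophages, fibroblasts and endothelial cells and 0.0108% in T cells. That 1 T cell gene, named after its values were seen, was nonagouti (a), a coat color gene. It had 88 and 106 UMIs in the Cre+ libraries and 0 UMIs in either Cre- library. In the Cre- libraries 3 UMIs would have been 1.71 and 1.46 CPM. The paper tells littermates apart by their coats, yellow for Cre+ mice and black for Cre- mice. Coat color thus overlaps with genotype, and its part in the other values was not tested. At an unadjusted p under 0.05, edgeR counted 465 of 16042 genes in luminal cells, 247 of 12877 in macrophages and 600 of 12601 in fibroblasts. In T cells it counted 366 of 9293 and in endothelial cells 421 of 10202. In the same order of classes, DESeq2 called 69, 9, 63, 6 and 3 after adjustment.

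Whether the Frmd8 difference was larger in luminal cells than in another class was tested by the interaction of genotype and class. The log2 fold change in luminal cells minus that in the other class was -0.998 ± 0.54 for macrophages (unadjusted p = 0.1047), -1.29 ± 0.55 for fibroblasts (unadjusted p = 0.05015), -1.25 ± 0.56 for endothelial cells (unadjusted p = 0.05565) and -0.63 ± 0.53 for T cells (unadjusted p = 0.27). The endothelial and T cell interactions were added after the data were seen. None was called after adjustment, and edgeR called 0% of genes in all 4 interactions. Of 16350, 16495, 15582 and 15760 genes tested, 242, 506, 496 and 453 had an unadjusted p under 0.05. DESeq2 called 1, 14, 5 and 2 genes. With the mouse as a block the fibroblast interaction called 2 genes, nonagouti and Mmp13, and Frmd8 was not among them. The Frmd8 difference was thus not shown to be larger in luminal cells than in any of these classes.

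**Figure D3:**
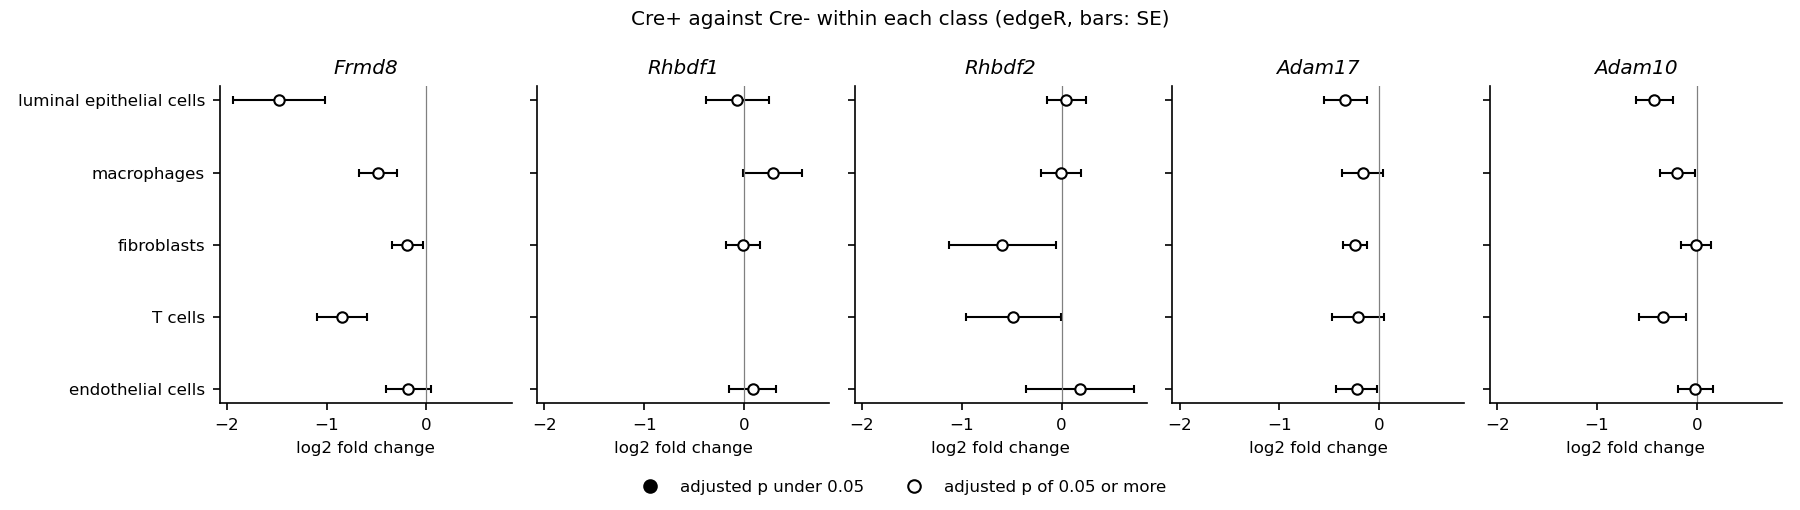
Log2 fold change of each gene, Cre+ over Cre- (horizontal axes), in 5 classes, from edgeR with bars of 1 SE. Open points have an adjusted p of 0.05 or more, and all points are open; Frmd8 lies at -1.48 in luminal epithelial cells and -0.85 in T cells.

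No partner of Frmd8 was called between genotypes in those of the 5 classes where it was tested. edgeR called 0.0108% of all genes in T cells and 0% in the other classes, and Frmd8 itself was not called. The lack of a call therefore does not show that the partners were unchanged. Rhbdf2 in luminal epithelial cells was 30.9 and 27.5 CPM in the Cre- libraries and 30.7 and 27.5 CPM in the Cre+ libraries, a log2 fold change of 0.05 ± 0.19. Rhbdf1 in the same cells was 33.4 and 23.8 CPM against 33.8 and 19.6 CPM (-0.07 ± 0.31). For both iRhoms the spread within a genotype was wider than the difference between genotypes. Luminal cells with many casein UMIs numbered 1498 and 1457 in the Cre- and 1675 and 693 in the Cre+ libraries. Those with few numbered 521 and 782 against 667 and 2053. In cells with many, Rhbdf2 was 32.1 and 28.0 CPM against 32.1 and 21.5 CPM. In cells with few it was 26.9 and 26.6 CPM against 27.9 and 30.2 CPM. The part of this mixture in the luminal values was not tested. Adam17 in luminal cells was 33.9 and 33.4 CPM against 30.7 and 21.1 CPM (-0.34 ± 0.22), and Adam10 was 70.3 and 72.9 CPM against 58.6 and 44.6 CPM (-0.43 ± 0.18, unadjusted p = 0.07166). The median UMIs per luminal cell were lower in both Cre+ libraries, as given above, and their part in these values was not tested. The lowest value of both proteases was that of Cre+ replicate 4. That library was the lowest of the 4 in 7 of 11 classes for Adam17 and in 7 of 11 for Adam10, where 29% to 48.9% of all genes were lowest in it in the single classes, and the part of its depth or processing in this was not tested. Adam17 lay below control in both Cre+ libraries in 4 of 11 classes, where 14.4% to 30.1% of all genes did so in the single classes, and above it in 1, pericytes, and Adam10 gave the same counts. The share of genes above control in both Cre+ libraries was 14% in pericytes, 12.8% in luminal epithelial cells, 12.1% in basal-keratin cells, 10.9% in T cells, 13.4% in NK cells, 6.38% in macrophages, 16% in dendritic cells, 15.2% in endothelial cells, 14.1% in fibroblasts, 13.1% in monocytes and 10.6% in neutrophils. The count of 1 of 11 above is near these shares. The count of 4 of 11 below runs over classes that share the same libraries, so it is not read as an excess over the shares of single classes. For the iRhoms the count below was 2 of 11 for Rhbdf1 and 1 of 11 for Rhbdf2, and the count above was 0 for each. The shares cover only genes with at least 40 UMIs in a class. Rhbdf1 had fewer in every immune class but macrophages, and Rhbdf2 had fewer in NK cells, pericytes and dendritic cells. Neutrophils, 1 of the 2 classes lower for Rhbdf1, had 6 Cre- and 1 Cre+ UMIs of it. The classes share the same mice, and the counts were not tested. Among macrophages, Adam17 was 127 and 110 CPM in the Cre- and 115 and 82.1 CPM in the Cre+ libraries, which overlap. Rhbdf1 could not be tested between genotypes in T cells, where it had too few UMIs to pass the filter on low counts.

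Rhbdf1 separated the epithelial and stromal classes from the immune classes. It was highest in pericytes (44.3 ± 10.2 CPM, SD, n = 4) and fibroblasts (41.1 ± 4.67), followed by basal-keratin cells (35.6 ± 5.92), luminal epithelial cells (27.7 ± 7.07) and endothelial cells (22.8 ± 1.18), and neighbors in this order overlapped. Below the endothelial range of 22.1 to 24.6 CPM came a gap, and the 6 immune classes had means of 0.793 to 4.12 CPM. In T cells it was detected with 2, 5, 2 and 0 UMIs in libraries 1 to 4. The 0 in Cre+ replicate 4 allows up to 1.03 CPM at 3 counts.

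Against luminal epithelial cells, Rhbdf1 was lower in T cells (log2 fold change -4.56 ± 0.42, adjusted p = 7.917e-12), macrophages (-2.57 ± 0.28, adjusted p = 2.928e-10) and neutrophils (-2.29 ± 0.52, adjusted p = 0.0002664). In macrophages 24.7% of all genes were called higher and 35.3% lower, and in neutrophils 21.4% and 35.1%. Fibroblasts were called higher (0.76 ± 0.26, adjusted p = 0.01257; 29.4% of genes higher, 26.8% lower), a call lost without TMM scaling, with upper limits on genes and UMIs per cell, within the Cre- libraries and without either Cre- replicate. Endothelial cells (-0.35 ± 0.28; 23.9% of genes higher, 28.5% lower) and basal-keratin cells (0.31 ± 0.27; 5.61% higher, 3.76% lower) were not called.

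Rhbdf2 followed another division. Neutrophils (44.2 ± 2.22 CPM), basal-keratin cells (32.0 ± 10.3), macrophages (31.7 ± 3.26), monocytes (29.9 ± 12.9) and luminal epithelial cells (29.2 ± 1.89) formed an upper group whose neighbors overlapped. The lowest luminal value, 27.5 CPM, lay above the highest endothelial value, 14.0 CPM. Endothelial cells, T cells, pericytes, dendritic cells, fibroblasts and NK cells made up the lower group, with means from 10.1 down to 3.96 CPM. Luminal cells, macrophages and neutrophils thus lay in the upper group, and T cells, NK cells and stromal cells in the lower one. B cells, with 9 to 58 cells per library, were left out of this order. They had 19.1 ± 13.1 CPM on 8 UMIs.

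Rhbdf2 was lower than in luminal epithelial cells in fibroblasts (-2.25 ± 0.28, adjusted p = 1.126e-08), T cells (-1.69 ± 0.30, adjusted p = 6.742e-06) and endothelial cells (-1.59 ± 0.29, adjusted p = 1.566e-05). Macrophages were not called (0.29 ± 0.25, adjusted p = 0.3245). Neutrophils were called higher (0.85 ± 0.32, adjusted p = 0.02153), with 41.4 to 46.2 CPM in every library on 5 to 35 UMIs. This neutrophil call was lost without TMM scaling, without the filter on low counts, under the stricter gate and without either Cre- replicate. Fibroblasts and macrophages were opposite in the iRhoms, since fibroblasts had 36.4 to 47.1 CPM of Rhbdf1 and 2.54 to 7.48 CPM of Rhbdf2, and macrophages had 3.45 to 5.33 CPM of Rhbdf1 and 28.0 to 35.8 CPM of Rhbdf2.

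Adam17, the protease escorted by the iRhoms, was highest in macrophages, with 127, 115, 110 and 82.1 CPM in libraries 1 to 4. Monocytes (71.9 ± 14.4 CPM), endothelial cells (63.8 ± 9.49), fibroblasts (58.7 ± 6.94) and neutrophils (45.1 ± 11.3) came next, each overlapping its neighbor, and the monocyte range of 62.2 to 93.4 CPM reached into that of macrophages. Luminal epithelial cells had 29.8 ± 5.97 CPM, beside T cells at 29.2 ± 3.80. Against luminal cells Adam17 was called higher in macrophages (2.04 ± 0.19, adjusted p = 7.315e-12), fibroblasts (1.18 ± 0.19, adjusted p = 1.533e-06), endothelial cells (1.04 ± 0.19, adjusted p = 1.71e-05) and neutrophils (0.89 ± 0.24, adjusted p = 0.001727). T cells (0.03 ± 0.20) and basal-keratin cells (0.04 ± 0.20) were not called. Within the Cre- libraries the macrophage difference was 2.08 (adjusted p = 1.342e-07).

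Adam10 was set apart by endothelial cells, with 265, 243, 253 and 264 CPM in libraries 1 to 4. The next of the 11 classes, macrophages, had 87.4 to 125 CPM and overlapped monocytes (74.7 to 134 CPM), and the other classes had means from 79.2 CPM in pericytes down to 38.3 CPM in dendritic cells. Luminal epithelial cells had 61.6 ± 12.9 CPM. Endothelial cells (2.0 ± 0.18, adjusted p = 2.587e-12) and macrophages (0.98 ± 0.17, adjusted p = 4.751e-06) were called higher than luminal cells. Neutrophils were called as well (0.54 ± 0.20, adjusted p = 0.02098), but that call was lost in 6 alternatives, among them scaling without TMM and leaving out Cre- replicate 1, Cre- replicate 3 or Cre+ replicate 4. Fibroblasts (0.20 ± 0.17), T cells (0.06 ± 0.18) and basal-keratin cells (0.04 ± 0.18) were not called.

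A second class high in Adam10 lay within the epithelium. Hormone-sensing cells held 313 CPM in library 1 (353 cells, 6063 UMIs), 175 CPM in library 2 (104 cells) and 149 CPM in library 3 (11 cells). All 3 values lay above the luminal range of 44.6 to 72.9 CPM, and the lowest of them came from few cells. In a comparison added after the data were seen, which set the 2 libraries with at least 20 such cells in 1 fit with the 11 classes, Adam10 was higher than in luminal cells (1.98 ± 0.21, adjusted p = 3.273e-09), where 5.96% of genes were called higher and 1.73% lower. Over the alternatives the difference ran from 1.83 to 2.48, but none of them left out library 1 or library 2. Where 2 values are given below for this class, they are of these 2 libraries. Adam17 in hormone-sensing cells was 30.6 and 29.0 CPM (0.02 ± 0.23), close to its luminal level, and Frmd8, Rhbdf1 and Rhbdf2 were not called either.

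**Figure D4:**
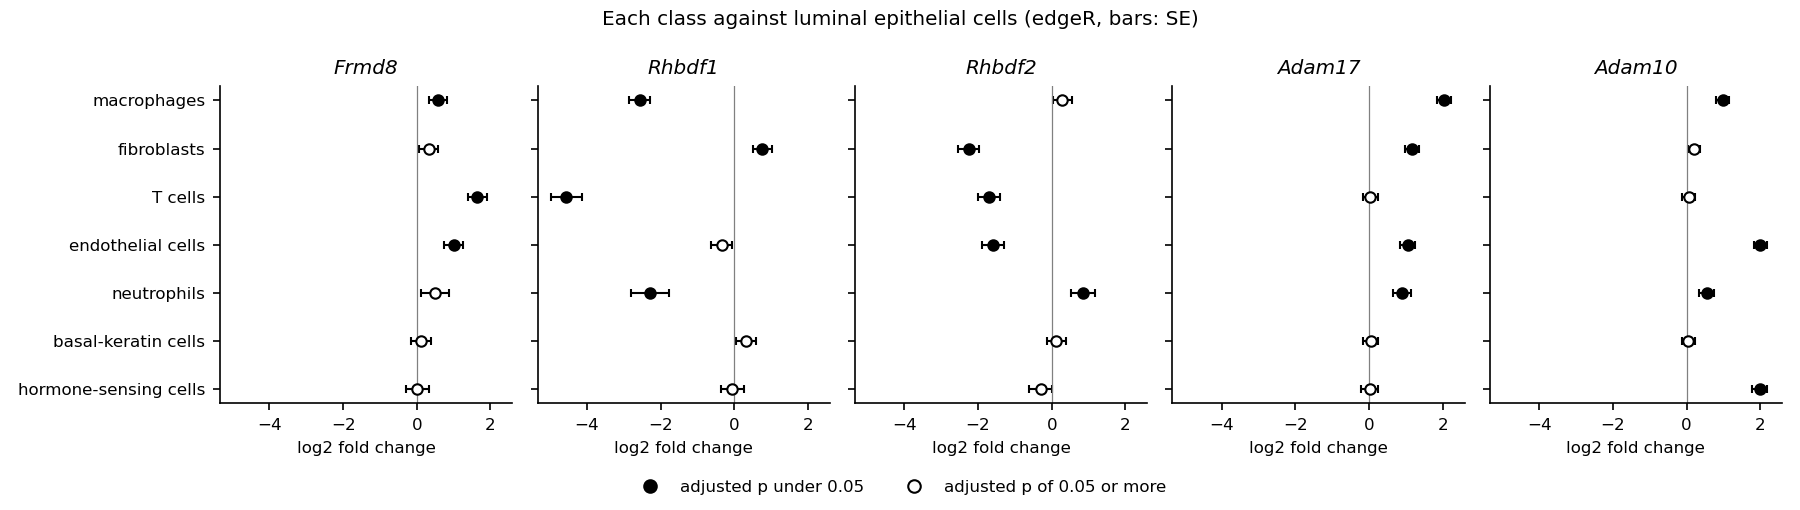
Log2 fold change of each gene in 7 classes against luminal epithelial cells (horizontal axes), from edgeR with bars of 1 SE and filled points at an adjusted p under 0.05. Rhbdf1 falls to -4.56 in T cells, Rhbdf2 to -2.25 in fibroblasts, Adam17 reaches 2.04 in macrophages, and Adam10 reaches 2.0 in endothelial and 1.98 in hormone-sensing cells.

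The genes of 8 related lists were counted as higher or lower than in luminal cells, and the counts are to be read against the share of all genes called. That share was 24.7% higher and 35.3% lower in macrophages, 29.4% and 26.8% in fibroblasts, 23.3% and 32.8% in T cells, 23.9% and 28.5% in endothelial cells, 21.4% and 35.1% in neutrophils, 5.61% and 3.76% in basal-keratin cells and 5.96% and 1.73% in hormone-sensing cells. The lists hold few genes, no list was tested as a group, and several counts are near those shares.

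The tetraspanins of the TspanC8 group, which escort ADAM10, were read beside it. In endothelial cells 3 of the 5 tested were higher than in luminal cells and 1 was lower (23.9% and 28.5% of all genes), with a median of 1.04 against -0.15 over all genes. Tspan15 was 93.3 to 155 CPM there and 38.6 to 74.0 CPM in luminal cells (1.04 ± 0.27, adjusted p = 0.001053), Tspan14 was higher by 1.20 and Tspan17 by 1.49. In hormone-sensing cells, the other class high in Adam10, Tspan17 was called higher and Tspan15 lower from the 2 libraries with at least 20 such cells. Tspan17 had 34.4 and 57.2 CPM there against 12.3 to 19.1 CPM in luminal cells, and Tspan15 had 14.9 and 22.7 CPM. With the 11 cells of Cre- replicate 3 the means were 36.4 and 31.0 CPM. That library lay within the luminal range for both genes. Tspan15 was also lower in macrophages (0.701 to 1.13 CPM), fibroblasts (1.40 to 5.08 CPM) and T cells (0.486 to 2.05 CPM). Tspan33 was lower in fibroblasts and T cells, at most 1.35 CPM against 12.1 to 33.0 CPM in luminal cells. Of the 5 tested, 1 was higher and 2 were lower in macrophages (24.7% and 35.3% of all genes), 1 and 3 in fibroblasts, 0 and 4 in T cells, 1 and 4 in neutrophils, 0 and 1 in basal-keratin cells and 1 and 2 in hormone-sensing cells.

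Among the genes for maturation and inhibition, furin and its relatives remove the prodomain of the ADAMs, and the TIMPs are their tissue inhibitors. Fibroblasts had 6 of 8 members higher and 1 lower (29.4% and 26.8% of all genes), with a median of 3.75 against -0.02 over all genes. Timp1, which inhibits ADAM10, was 811 to 1410 CPM in fibroblasts and 1.73 to 14.7 CPM in luminal cells (7.27 ± 0.63, adjusted p = 1.058e-12). Timp3, the tissue inhibitor best known for ADAM17, was 893 to 1080 CPM in fibroblasts, 334 to 715 CPM in basal-keratin cells and 277 to 385 CPM in endothelial cells, against 22.7 to 70.0 CPM in luminal cells. It was lower in macrophages, the class highest in Adam17, at 5.33 to 20.7 CPM (-2.04 ± 0.45, adjusted p = 0.0001824). Macrophages instead had more Timp2 (328 to 715 against 87.8 to 261 CPM) and more Furin (67.0 to 109 against 26.1 to 51.3 CPM). Furin was higher in neutrophils (1.92) and T cells (1.02) too. Of 8 members, 2 were higher and 4 lower in macrophages, 2 and 3 in T cells, 3 and 1 in endothelial cells, 1 and 1 in neutrophils and 2 and 0 in basal-keratin cells, and 0 of 9 were called in hormone-sensing cells.

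Of the 6 other membrane ADAMs tested, 5 were higher and 0 lower in macrophages (24.7% and 35.3% of all genes) and in fibroblasts (29.4% and 26.8%), 4 and 2 in T cells, 3 and 0 in endothelial cells, 2 and 0 in neutrophils and 1 and 0 in basal-keratin cells, and the medians in macrophages and fibroblasts were 3.54 and 4.39. Adam19 was 0.356 to 0.706 CPM in luminal cells and 57.9 to 77.0 CPM in T cells, 47.7 to 83.9 CPM in fibroblasts and 35.1 to 53.0 CPM in endothelial cells. Adam8, a protease of myeloid cells, was 221 to 387 CPM in neutrophils and 35.0 to 130 CPM in macrophages, against 1.79 to 4.24 CPM in luminal cells. Adam12 was 54.2 to 74.0 CPM in fibroblasts and Adam15 was 145 to 205 CPM in endothelial cells, both higher than in luminal cells. Hormone-sensing cells had 2 of 7 higher, Adam8 (mean 11.7 against 2.92 CPM) and Adam33 (mean 0.285 against 0.114 CPM). Adam33 was barely detected in either class. Both hormone-sensing means include the 11 cells of Cre- replicate 3, which the calls did not use.

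Among relatives of the binding partners, the other rhomboids had 0 higher and 3 lower of 6 in macrophages, 1 and 2 in fibroblasts (near the 29.4% and 26.8% of all genes), 0 and 3 in T cells, 1 and 3 in endothelial cells, 0 and 1 in neutrophils, 0 and 0 in basal-keratin cells and 1 and 0 in hormone-sensing cells. Rhbdl2, an active rhomboid protease, was at most 0.174 CPM in macrophages. In endothelial cells Rhbdl2 was higher (4.97 to 17.7 against 0.746 to 1.24 CPM), as in hormone-sensing cells (6.21 and 8.36 CPM). Of the 4 other FRMD genes tested, Frmd4b was higher in macrophages (49.5 to 121 CPM), T cells (26.0 to 47.9 CPM) and endothelial cells (61.5 to 67.4 CPM) than in luminal cells (2.56 to 5.38 CPM). Frmd6 was higher in fibroblasts (126 to 175 against 14.4 to 17.7 CPM) and lower in macrophages (4.04 to 5.44 CPM). The FRMD list had 2 higher and 1 lower in macrophages and in T cells, 3 and 0 in fibroblasts and in endothelial cells, 0 and 2 in neutrophils, 1 and 0 in basal-keratin cells and 0 and 0 in hormone-sensing cells.

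Of 6 EGF family ligands tested, which ADAM17 and ADAM10 release, 4 were lower and 0 higher in macrophages (35.3% and 24.7% of all genes), with a median of -4.41 against -0.20 over all genes. In fibroblasts 5 were lower and 1, Ereg, was higher (26.8% and 29.4% of all genes). Tgfa was 6.07 to 8.24 CPM in luminal cells and 0.106 to 0.327 CPM in macrophages. Hbegf was 121 to 188 CPM in luminal cells, 8.00 to 18.0 CPM in T cells and 238 to 503 CPM in basal-keratin cells, where 3 ligands were higher. Areg, amphiregulin, an ADAM17 substrate induced by estrogen, was 443 and 540 CPM in hormone-sensing cells and 3.05 to 16.6 CPM in luminal cells (5.59 ± 0.76, adjusted p = 7.194e-07), and it was the 1 of 6 ligands called there. With the 11 hormone-sensing cells of Cre- replicate 3, which lay lower, the mean was 369 CPM. Among the classes tested outside the epithelium, Areg was called higher in T cells only, at 35.9 to 133 CPM. Monocytes and dendritic cells, with means of 34.5 and 23.4 CPM, were not tested. In T cells 1 ligand was higher and 4 were lower, in endothelial cells 0 and 3 (23.9% and 28.5% of all genes) and in neutrophils 0 and 3 (21.4% and 35.1%).

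Of the 15 other ADAM17 substrates, 10 were higher and 2 lower in macrophages (24.7% and 35.3% of all genes), with a median of 3.89 against -0.20 over all genes. Vcam1 was 170 to 253 CPM there against 0.762 to 1.64 CPM, and Tnfrsf1b, a tumor necrosis factor receptor, 60.2 to 103 against 2.26 to 5.65 CPM. Csf1r, the receptor for macrophage colony-stimulating factor, was also higher, but it was one of the macrophage gating markers. Neutrophils had 9 higher and 3 lower, with Tnfrsf1b at 182 to 379 CPM. Sdc1 and Cx3cl1 were lower in macrophages, and Sdc4 was 321 to 440 CPM in luminal cells and 8.40 to 13.3 CPM in endothelial cells. The counts were 9 and 2 in fibroblasts, 6 and 6 in T cells, 4 and 6 in endothelial cells, 5 and 0 in basal-keratin cells and 1 and 1 in hormone-sensing cells.

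Of the 9 ADAM10 substrates, 3 were higher and 3 lower in endothelial cells, the class with the most Adam10 among the 11, which is near the 23.9% and 28.5% of all genes. Notch1 was 238 to 319 CPM there against 30.7 to 101 CPM in luminal cells (1.88 ± 0.28, adjusted p = 4.199e-07), Prnp 270 to 291 CPM and App 648 to 805 CPM. Cd44, Notch2 and Cdh1 were lower there, Cdh1 being an epithelial gating marker. Hormone-sensing cells had 0 substrates higher and 0 lower. The counts were 4 and 5 in macrophages, 5 and 4 in fibroblasts, 3 and 4 in T cells, 2 and 2 in neutrophils and 4 and 0 in basal-keratin cells. The lower genes in macrophages and fibroblasts also include Cdh1, whose UMIs the gate itself used. Between genotypes none of the genes of the 8 lists was called in any of the 5 classes, where the share of all genes called was 0% or 0.0108%.

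**Figure D5:**
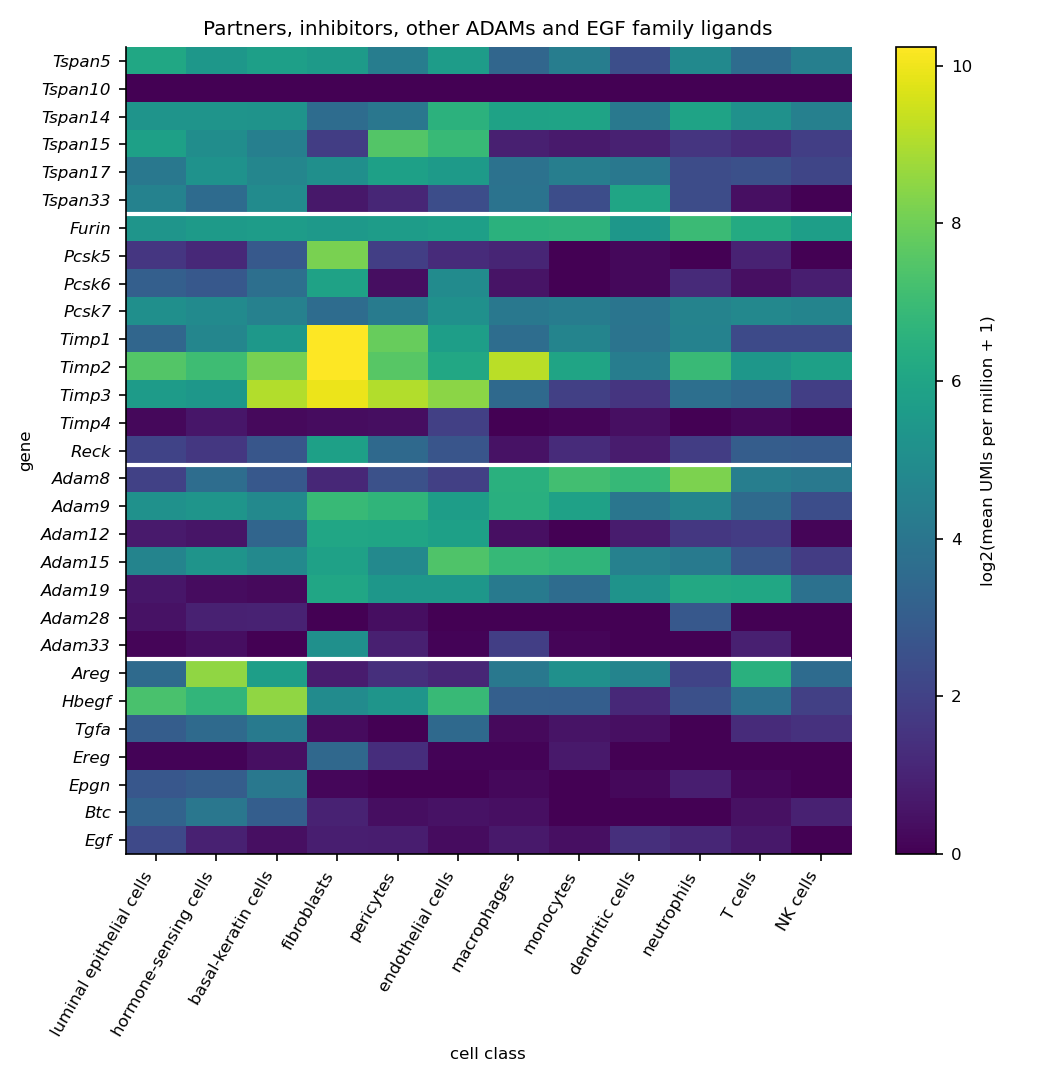
Mean level over libraries, as log2(CPM + 1) by color, of TspanC8 tetraspanins, maturation genes and inhibitors, other membrane ADAMs and EGF family ligands (rows, lists parted by white lines) in 12 classes (columns). Timp1, Timp2 and Timp3 are brightest in fibroblasts, Adam8 in neutrophils, Tspan15 in pericytes and endothelial cells, and Areg in hormone-sensing cells.

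The genes most like each member were sought by the Pearson correlation of mean log2(CPM + 1) over the 11 classes, among 9030 genes with a mean of at least 10 CPM. These are descriptions over points that share libraries and depth. The profiles average all 4 libraries, so that of Frmd8 holds its lower Cre+ values in the epithelial classes. Profiles of the Cre- libraries alone were not computed. Frmd8 was closest to Wrn (r = 0.953), Casp8ap2 (0.948) and Ppm1g (0.922), and Rhbdf1 to Casp12 (0.991), Tmed1 (0.990) and Morf4l2 (0.985). Rhbdf2 was closest to Gk (0.946), Eno1b (0.944) and Gapdh (0.908), Adam17 to Cmklr1 (0.930), Ctsb (0.886) and G530011O06Rik (0.878), and Adam10 to Exoc5 (0.909), Pald1 (0.904) and Prdm1 (0.895). Eno1b and Gapdh have near-identical copies, between which reads could be split. Among the members, Adam17 and Adam10 were the most alike (r = 0.60). Over Cre- and Cre+ libraries together, Frmd8 ran opposite to Rhbdf2 (r = -0.62) and Rhbdf1 (r = -0.46). The part of the lower Cre+ values in this was not tested.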

How the data were processed

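Tumor cells, sorted by flow cytometry, were captured on the 10x Genomics platform (3′ kit, v3) in 4 libraries. The values the authors deposited are unnormalized UMI counts for every gene in each barcode, made with Cell Ranger 6.1.2 (replicates 1 to 3, called cells) or Cell Ranger 4 (replicate 4, all barcodes) per the file headers; version and deposited form thus overlap with Cre+. The submitters' notes name a human build, but the files list mouse Ensembl genes. No annotation of cells was used here, and all classes were rebuilt. The members and gene lists were chosen with earlier results of these data known, and gate thresholds were set with the number of cells per class in view.

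Barcodes were kept from 1000 UMIs with up to 20% mitochondrial UMIs; limits of 200 to 5000 genes and under 30000 UMIs, read from the study's methods, were an alternative added after the data were seen. A cell entered a class when at least 3 of its markers had a UMI and its marker level, scaled to that of cells rich in those markers, was at least 0.2 and at least 2 times that of any competing class. Hormone-sensing cells needed 4 markers. Doublets were not removed. Intervals and limits of a 0 cover counting error only.

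Counts were summed per library and class (at least 20 cells) and tested with the quasi-likelihood test of edgeR 4.0.16 (R 4.3.3, TMM, filterByExpr, Benjamini-Hochberg, threshold 0.05); classes were compared in 1 model of genotype and class. Replicates are mice. DESeq2 1.42.0 was an alternative. Scripts were tested on simulated data. Class sums of 1 library come from 1 mouse and are paired by it, so a further fit took the mouse as its block. Relative to luminal cells the median log2 fold change of all genes was -0.20 in macrophages and T cells, -0.15 in endothelial cells and -0.74 in neutrophils; without TMM it moved to -0.37 in macrophages, -0.20 in fibroblasts and -0.98 in neutrophils.

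The genes named were the 5 members and, chosen by rule, genes from among up to 3 genes per list, comparison and direction with the largest fold among called genes whose libraries did not overlap, together with the 3 genes most like each member. Genes at 0 in a whole group were not given a fold. The values of 1 gene named by this rule are not reported here.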

Additional observations from a re-analysis of the deposited data

Results flagged for a closer look

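Cre+ replicate 4 was deposited with all barcodes, and those with up to 100 UMIs, which no comparison used, held signal of every member above the limit that a count of 0 allows. Over 2078989 such barcodes and 4981956 UMIs, Frmd8 was 10.4 CPM (52 UMIs), Rhbdf1 16.5 CPM (82 UMIs), Rhbdf2 22.3 CPM (111 UMIs), Adam17 30.3 CPM (151 UMIs) and Adam10 50.0 CPM (249 UMIs). In the same barcodes Krt8, a luminal keratin, was 640 CPM and C1qa, a macrophage gene, 2426 CPM. Frmd8 in the luminal epithelial cells of that library was 11.1 CPM, and the part of RNA from outside the cell in the values per class was not tested. The other 3 libraries were deposited from 500 UMIs and give no such value.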

How the results depend on the processing

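Of the members' values in the planned and added alternatives, 664 kept their direction and their side of the threshold, 56 changed sign, 20 lost their call and 1 gained one; no value that changed sign had been called, and the cause of the changes was not tested. Depth limited neutrophils (28 cells in Cre+ replicate 2), and the number of genes called between genotypes moved with the mouse left out, the tool and the filter. Leaving out 1 mouse, where the lone library is assumed to vary like the others, gave 0 to 114 genes in luminal epithelial cells, 0 to 1099 in macrophages, 0 to 43 in fibroblasts, 3 to 254 in T cells and 9 to 76 in endothelial cells, with every highest count reached without Cre+ replicate 2, and 0 to 7 in the T cell interaction, 485 to 1367 in basal-keratin cells and 727 to 2347 in hormone-sensing cells. For hormone-sensing cells only Cre- replicate 3 or Cre+ replicate 4 could be left out, and neither gave hormone-sensing cells to the fit. DESeq2 called 69 genes between genotypes in luminal cells, 9 in macrophages, 63 in fibroblasts, 6 in T cells and 3 in endothelial cells. In the interactions with macrophages, fibroblasts, T cells and endothelial cells it called 1, 14, 2 and 5. Without the filter on low counts 5 genes were called in macrophages, 488 in fibroblasts, 129 in T cells, 226 in endothelial cells, 2059 in basal-keratin cells and 2129 in hormone-sensing cells. T cells had 0 calls without TMM, and 2 with at least 3000 UMIs, with the strict gate or with upper limits, nonagouti and Cxcl10, named after their values were seen. Upper limits gave 2064 calls in hormone-sensing cells, and the Cre- libraries alone gave 658 in basal-keratin cells. Frmd8 in macrophages ran from -0.68 to -0.35 between genotypes when 1 mouse was left out. Its call without Cre+ replicate 2 rests on 1 Cre+ library and came beside many other calls.

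Where a genotype was compared within 1 class, no paired analysis was made, because no pairing of Cre- with Cre+ libraries was known. The paper bred littermates of both genotypes but does not say which libraries shared a litter. Between classes of the same mice, the mouse as a block called 2 genes in the fibroblast interaction and turned Adam17 in hormone-sensing cells to -0.02; it changed the call of no member.

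The sign changes between genotypes were as follows. When 1 mouse was left out, Rhbdf1 ran from -0.40 to 0.20 in luminal cells and from -0.19 to 0.18 in fibroblasts, Rhbdf2 from -0.05 to 0.14 in luminal cells, -0.21 to 0.13 in macrophages, -1.33 to 0.15 in fibroblasts, -1.07 to 0.03 in T cells and -0.49 to 0.91 in endothelial cells, and Adam10 from -0.20 to 0.14 in fibroblasts and -0.11 to 0.09 in endothelial cells. Rhbdf2 was -0.0048 without TMM in luminal cells, 0.05 with the strict gate in macrophages and -0.14 with upper limits in endothelial cells. In fibroblasts Rhbdf1 was 0 without the filter, 0.0024 from 3000 UMIs and 0.01 with the strict gate, and Adam10 was 0.0022, 0.11 with upper limits and 0.0006 with the strict gate. In endothelial cells Adam10 was 0.0004 with replicate 4 from 5000 UMIs and 0.0022 from 3000 UMIs.

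Against luminal cells, leaving out 1 mouse gave Frmd8 0.38 to 0.98 in macrophages, -0.09 to 0.53 in fibroblasts and -0.02 to 0.14 in hormone-sensing cells, Adam17 -0.01 to 0.18 in T cells, -0.23 to 0.23 in basal-keratin cells and -0.17 to 0.06 in hormone-sensing cells, and Rhbdf2 -0.25 to 0.26 and Adam10 -0.24 to 0.18 in basal-keratin cells. The hormone-sensing ranges come from leaving out Cre- replicate 3 or Cre+ replicate 4 only, not the libraries that gave those cells to the fit. In the Cre- libraries alone Frmd8 was -0.33 and Adam10 -0.07 in fibroblasts, and in basal-keratin cells Rhbdf2 was -0.02, Adam17 -0.03 and Adam10 -0.08. In T cells Adam17 was -0.03 without TMM, -0.01 from 3000 UMIs and -0.08 with upper limits, and Adam10 was -0.0041 without TMM. Without the filter, basal-keratin cells had Frmd8 at -0.004 and Adam17 and Adam10 at -0.05. In hormone-sensing cells Frmd8 was -0.0025 with DESeq2 and -0.01 with the strict gate, Adam17 was -0.0028 with the strict gate and -0.17 with upper limits, and both were -0.04 without the filter, -0.07 with replicate 4 from 5000 UMIs and -0.04 from 3000 UMIs.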

Other observations

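Cells that entered no class held Frmd8 at 27.9 and 24.4 CPM in the Cre- libraries and at 17.0 and 10.8 CPM in the Cre+ libraries. The genotypes did not overlap, and the Cre+ mean was 53.2% of the Cre- mean. These cells were led by hemoglobin and immunoglobulin genes and mix several cell types.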
